A study of Glycine max with 24 samples.

Results

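Transcripts of the Rhg1 locus of soybean (Glycine max) were described in leaves of 4 lines with and without exposure to microbial patterns. The members were all transcripts of the loci Glyma18g02580 (an amino acid transporter), Glyma18g02590 (alpha-SNAP) and Glyma18g02610 (a WI12 protein), taken by locus name whatever their transcript suffix. This gave 3 transcripts, 1 per locus, of 41743 in the deposited table: Glyma18g02580.1, Glyma18g02590.1 and Glyma18g02610.1. R-11268 and R-11272 are recombinant inbred lines, nearly homozygous lines raised by selfing after a cross, and LD and LDX are the parents of their population. For each line there were 3 libraries from MAMP-treated and 3 from control leaf slices (8 groups, 24 libraries). Each replicate was read as a pool of leaves of 5 plants aged 3 weeks, grown with a 16 h photoperiod. Leaves of all groups were detached, infiltrated with water, sliced and floated on water overnight in the dark. MAMP slices then spent 30 min in 5 ml of a solution of 1 µM flg22, a peptide of bacterial flagellin, and 50 µg of crab shell chitin, a fungal cell wall polymer. Control slices spent the same time in water with DMSO, the solvent of the peptide. Flg22 and chitin are microbe-associated molecular patterns (MAMPs), which plant cells perceive with surface receptors. The labels give neither the Rhg1 allele or copy number of any line nor its reaction to nematodes.

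Rhg1 is known as a major locus for resistance to the soybean cyst nematode, a parasite of roots. Resistance there is tied to a chromosome segment that is repeated in tandem, with a copy number that differs between soybean lines, and higher transcript levels of the genes in the repeat have been described in lines with more copies. Alpha-SNAP proteins help the ATPase NSF to take SNARE complexes apart after vesicles have fused with a membrane. Amino acid transporters move amino acids across membranes, and WI12 proteins are named for a wound-inducible protein of another plant species. In RefSeq's table of the Williams 82 assembly Glycine_max_v4.0, a gene with the synonym Rhg1-GmAAT, the gene SNAP18, a gene without a name (LOC100778099) and the gene WI12 follow each other on chromosome 18 in that order. None of the 41743 identifiers (0 matched) occurs in that table, so the roles of the 3 members are those of the locus definition and no other identifier is given a role. For the same reason the labelled leaf tissue could not be checked against marker genes, and no sequence of these transcripts could be looked up.

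Levels are CPM, each library's share of its total of deposited estimated counts scaled between libraries by TMM. Library totals ranged from 9780810 to 20827163 estimated counts, and each member held at least 1875 estimated counts over the 3 libraries of any group. The transcripts differ in length, so levels are compared between lines and treatments but not between transcripts. The table has the form of fitted values: in each line the MAMP to control ratio of a transcript was the same in replicates 1, 2 and 3 up to a constant per replicate, with a 99th percentile of the SD of at most 1.6e-09 on the log2 scale. Lines were therefore compared over 12 pools, each the sum of the MAMP and control library of a replicate number. Over 27083 transcripts, 3 pools stood apart, R-11272 replicate 1, LD replicate 2 and LDX replicate 3. Their median correlation with the other pools was 0.813 to 0.894, against 0.94 to 0.963 for the remaining 9 pools. Values without these pools are given beside a result where they changed a call or a direction. That setting keeps only replicates 2 and 3 of R-11272, 1 and 3 of LD and 1 and 2 of LDX. The pools left out were picked from these same data by their low correlation, so a smaller spread without them is in part built in.

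Glyma18g02580.1, the amino acid transporter, was far more abundant in LD than in LDX. Its pool levels were 45, 50.9 and 37.8 CPM in R-11268, 152, 104 and 92.2 CPM in R-11272, 338, 576 and 291 CPM in LD and 38.3, 27.3 and 57.6 CPM in LDX. LD lay above every other line, R-11272 above R-11268 and LDX, and R-11268 overlapped with LDX. Over 3 pools a line (mean ± SD, n = 3) this came to 44.6 ± 6.54 CPM for R-11268, 116 ± 31.5 CPM for R-11272, 402 ± 153 CPM for LD and 41.1 ± 15.3 CPM for LDX. The highest pool of R-11272, of LD and of LDX was in each case the pool that stood apart. The TMM factors of these pools were 0.736, 0.941 and 0.799. Scaled by totals alone, they were still the highest of their lines, by smaller margins. R-11272 replicate 1 then held 111 CPM, against 110 and 99.9 CPM in replicates 2 and 3. LD replicate 2 held 542 CPM against 350 and 305 CPM, and LDX replicate 3 held 45.9 CPM against 42.5 and 29.2 CPM. In these bulk slices fewer cells of a type and less RNA per cell cannot be told apart, nor can more gene copies and more transcript per copy.

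The LD level of Glyma18g02580.1 was 9.78 times that of LDX, a log2 difference of 3.29 ± 0.382 (SE; edgeR adjusted p = 0.000568). R-11268 fell to a level 9.02 times below LD, with a log2 difference of -3.17 ± 0.38 (edgeR adjusted p = 0.00186). Its log2 difference from LDX was 0.12, with a 95% interval of -0.66 to 0.89 (edgeR adjusted p = 0.907), which takes in differences of either sign. R-11272 was 3.47 times below LD (log2 -1.79 ± 0.36, edgeR adjusted p = 0.0251). Its level was 2.82 times that of LDX, but this log2 difference of 1.5 ± 0.357 did not pass the test (edgeR adjusted p = 0.0849). The call of R-11272 against LD was lost without R-11272 replicate 2 (edgeR adjusted p = 0.0847), without R-11272 replicate 3 (0.0777) and without LD replicate 2 (0.085), and in a fit of these 2 lines alone (0.115). Without the 3 pools apart R-11272 lay below LD (log2 -1.69, edgeR adjusted p = 0.00859) and above LDX (1.57, 0.0123), so that in that setting it was called between both parents.

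**Figure D1:**
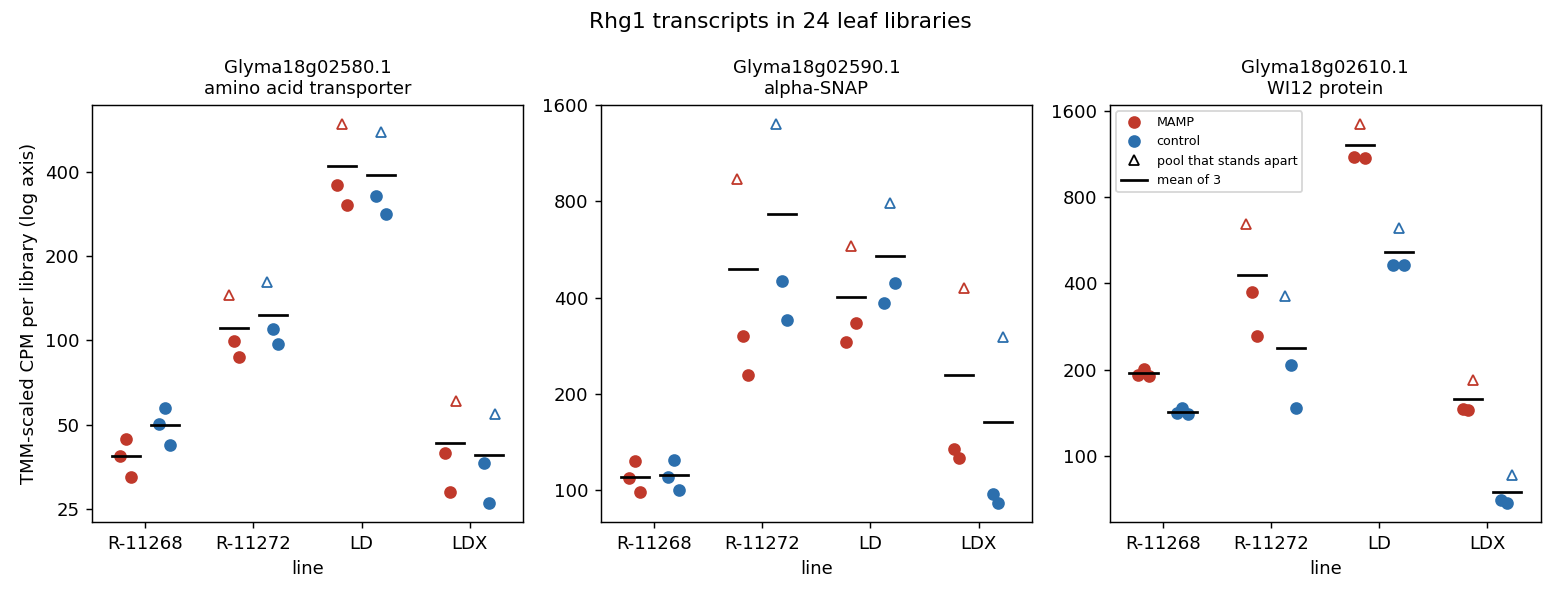
TMM-scaled CPM of the 3 Rhg1 transcripts (log axis) in each of 24 libraries, by line, with MAMP libraries in red left of control libraries in blue; bars are means of 3 libraries and open triangles mark the pools R-11272 replicate 1, LD replicate 2 and LDX replicate 3. The LD libraries of Glyma18g02580.1 lie above those of all other lines. With this TMM scaling the marked pools are the highest of their line in each treatment for each transcript.

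Glyma18g02590.1, the alpha-SNAP transcript, showed another order of lines. Its pool levels were 111, 125 and 99.6 CPM in R-11268, 1160, 365 and 284 CPM in R-11272, 338, 663 and 387 CPM in LD and 116, 108 and 364 CPM in LDX. R-11272 and LD overlapped, and R-11268 lay below both. The LDX pool that stood apart lay within the ranges of R-11272 and LD, and the other LDX pools within the range of R-11268. The means ± SD (n = 3) were 112 ± 12.6 CPM for R-11268, 603 ± 484 CPM for R-11272, 463 ± 175 CPM for LD and 196 ± 146 CPM for LDX. With scaling by totals alone the pools that stood apart were still clearly the highest of their lines. R-11272 replicate 1 held 853 CPM against 386 and 308 CPM, and LD replicate 2 held 624 CPM against 350 and 405 CPM. LDX replicate 3 held 291 CPM against 128 and 116 CPM.

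In the edgeR fit over all 12 pools the alpha-SNAP transcript was called in 0 of the 6 line comparisons. LD minus LDX was 1.24 ± 0.617 on the log2 scale (edgeR adjusted p = 0.42), and R-11268 minus LD was -2.05 ± 0.632 (0.212). R-11268 minus R-11272 was -2.43 ± 0.641 (edgeR adjusted p = 0.158) and R-11272 minus LDX was 1.62 ± 0.623 (0.438). Other tests did call it. DESeq2 on all pools called R-11268 minus R-11272 (-2.42, adjusted p = 0.00545) and R-11268 minus LD (-2.05, 0.035). From the pools of R-11268 and LD alone, edgeR called R-11268 minus LD (-2.06, adjusted p = 0.0315). That fit holds no R-11272 or LDX pool, and so not the pools of these lines that stood apart. Without the 3 pools apart the standard errors shrank to between 0.156 and 0.178, and the same 4 differences were called. In that setting R-11272, LD and LDX keep fewer pools, and the smaller spread is in part built in by how the pools were picked. LD was then 3.23 times LDX (log2 1.69, edgeR adjusted p = 0.00225), and R-11268 was 3.28 times below LD (-1.71, 0.0027). R-11268 was 2.93 times below R-11272 (-1.55, edgeR adjusted p = 0.00345) and R-11272 was 2.89 times LDX (1.53, 0.0066). R-11272 minus LD was 0.38 with all pools and -0.16 without the 3 (edgeR adjusted p = 0.794 and 0.651), and R-11268 minus LDX was -0.81 and -0.02 (0.685 and 0.973). What set these pools apart is not recorded in the labels, and its part in the alpha-SNAP levels was not tested.

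Glyma18g02610.1, the WI12 transcript, again stood highest in LD. Its pool levels were 168, 177 and 166 CPM in R-11268, 490, 304 and 207 CPM in R-11272, 739, 1100 and 759 CPM in LD and 108, 107 and 135 CPM in LDX. The 4 lines did not overlap, in the order LD, R-11272, R-11268 and LDX from high to low. The means ± SD (n = 3) were 170 ± 5.77 CPM for R-11268, 334 ± 144 CPM for R-11272, 864 ± 201 CPM for LD and 116 ± 16 CPM for LDX. Scaled by totals alone, LDX replicate 3 was the lowest LDX pool and not the highest, at 108 CPM against 119 and 114 CPM. Separate ranges were common over all 34807 transcripts: 19.5% had them in LD against LDX, 22% in R-11268 against R-11272, 30% in R-11268 against LD, 17.6% in R-11268 against LDX, 25.9% in R-11272 against LD and 10.4% in R-11272 against LDX.

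LD held 7.42 times as much WI12 transcript as LDX (log2 2.89 ± 0.343, edgeR adjusted p = 0.000655), and R-11268 was 5.08 times below LD (-2.34 ± 0.335, 0.00604). R-11272 was between the parents by value: 2.59 times below LD (log2 -1.37 ± 0.325, edgeR adjusted p = 0.051) and 2.87 times above LDX (1.52 ± 0.326, 0.052). Whether these differences passed turned on the setting. Both were called when the 3 pools apart were left out, at -1.55 (edgeR adjusted p = 0.0084) and 1.25 (0.0215). Neither was called in fits of the lines compared alone (edgeR adjusted p = 0.241 and 0.503), with the replicate block (0.117 and 0.162) or with a mean count of 100 or more (0.121 and 0.156). With single pools left out the edgeR adjusted p ran from 0.0128 to 0.174 against LD and from 0.0199 to 0.173 against LDX. R-11268 minus LDX was 0.55 with a 95% interval of -0.16 to 1.26 (edgeR adjusted p = 0.633), and R-11268 minus R-11272 was -0.97 ± 0.322 (0.333).

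**Figure D2:**
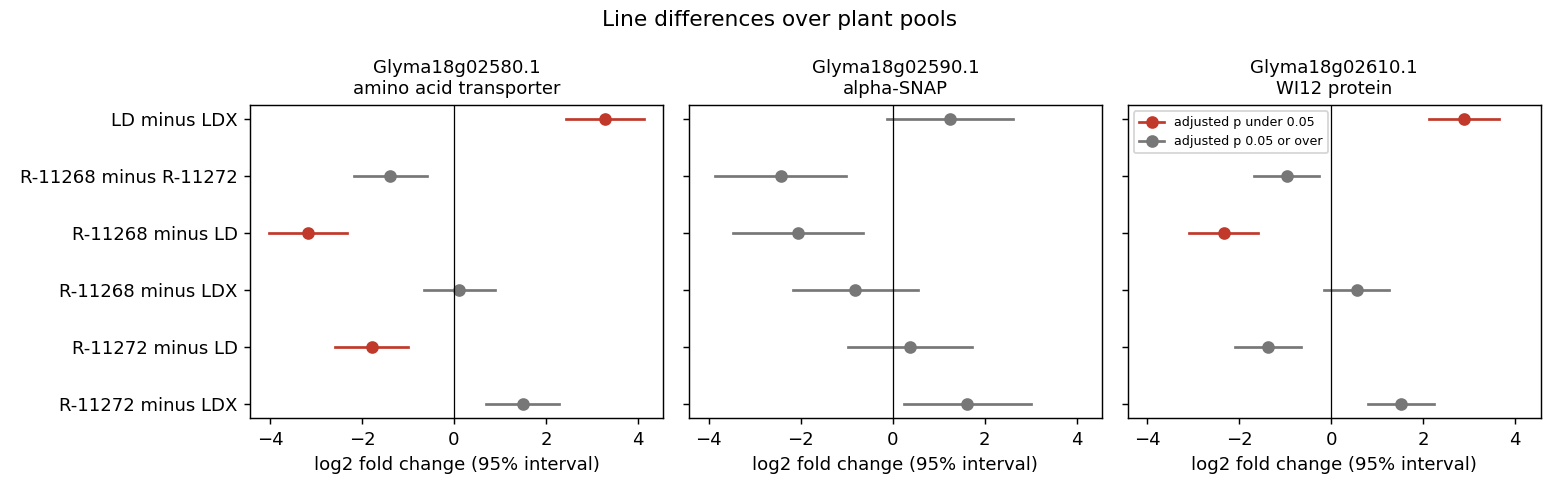
Log2 differences between lines over plant pools (x axis, with 95% intervals) for the 3 Rhg1 transcripts; red marks an edgeR adjusted p under 0.05. LD minus LDX was called for Glyma18g02580.1 at 3.29 and Glyma18g02610.1 at 2.89, while the wide intervals of Glyma18g02590.1 gave no call.

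Each pool enters 3 of the 6 line comparisons, so their counts overlap in the data they use. Of the members, 2 of 3 were called higher in LD than in LDX, where 1.97% of all tested transcripts were, and 3 of 3 without the 3 pools apart, where 4.95% were. In R-11268 against LD 2 of 3 were called lower, against 0.669% of all transcripts, and in R-11272 against LD 1 of 3, against 1.26%. R-11268 against LDX gave 0 of 3 calls by edgeR, 0 at an unadjusted p under 0.05 and 0 by DESeq2, beside shares of all transcripts of 1.87%, 10.3% and 2.94% under these rules. R-11268 against R-11272 gave 0 of 3 calls by edgeR, beside 0.69% of all transcripts called lower, with 3 at an unadjusted p under 0.05 (6.49% of all transcripts, lower) and 2 called lower by DESeq2 (1.04%). R-11272 against LDX also gave 0 of 3 calls by edgeR, beside 1.11% called higher, with 3 at an unadjusted p under 0.05 (5% of all transcripts, higher) and 2 by DESeq2 (1.5%). Once the 3 pools apart were left out, edgeR called 2 members lower in R-11268 against R-11272 (1.07% of all transcripts; the amino acid transporter at -1.15, adjusted p = 0.0302, and alpha-SNAP), 3 lower in R-11268 against LD (1.32%) and 2 lower in R-11272 against LD (2.48%). In that setting it called 3 higher in R-11272 against LDX (1.55%), and 0 in R-11268 against LDX (3.21% in either direction).

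Positions between the parents were taken from the means of log2 pool levels, with LDX at 0% and LD at 100%. R-11268 lay at 5.28% for the amino acid transporter, -40.8% for alpha-SNAP and 19.3% for WI12. These became, when the 3 pools apart were left out, 13.8%, -0.615% and 23.8%. R-11268 thus lay nearer to LDX than to LD for each transcript in that setting. R-11272 lay at 46.4% for the amino acid transporter, 111% for alpha-SNAP and 50% for WI12, and at 48.7%, 90.1% and 43.7% without the 3 pools. Its alpha-SNAP level was near that of LD while the other members lay about midway between the parents. Whether the members differ in this was not tested.

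Line differences were also read in each treatment, from the same pools. LD minus LDX for the amino acid transporter was 3.29 in MAMP and 3.31 in control libraries, and for WI12 it was 2.93 in MAMP and 2.78 in control libraries. For alpha-SNAP it was 0.81 in MAMP libraries and 1.72 in control libraries. The alpha-SNAP difference R-11268 minus R-11272 was -2.16 among MAMP libraries (edgeR adjusted p = 0.14) and -2.71 among control libraries (0.0431). When the 3 pools apart were left out it was -1.28 among MAMP (edgeR adjusted p = 0.000457) and -1.82 among control libraries (2.97e-05), and LD minus LDX was 1.23 (0.000794) and 2.12 (1.32e-05). In that setting R-11268 was also called above LDX among control libraries, by 0.66 for the amino acid transporter (edgeR adjusted p = 0.0484) and by 1.03 for WI12 (0.00164). Among MAMP libraries these were 0.17 (edgeR adjusted p = 0.761) and 0.41 (0.191). Also newly called in that setting was R-11268 minus R-11272, for the amino acid transporter in control libraries (-1.05, edgeR adjusted p = 0.00778) and for WI12 in MAMP libraries (-0.72, 0.0184). Alpha-SNAP was newly called in MAMP and control libraries for R-11268 minus LD (-1.47 and -1.89) and R-11272 minus LDX (1.04 and 2.05). With all pools R-11272 was called above LDX for the amino acid transporter in MAMP libraries (1.36, edgeR adjusted p = 0.0457) and in control libraries (1.65, 0.0157). WI12 was called in the same way, at 1.43 in MAMP (edgeR adjusted p = 0.0122) and 1.67 in control libraries (0.0045). These fits count the MAMP and control library of a pool as separate, so their p-values may be too small.

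Glyma18g02600.1, the only other locus of the table numbered between the members and at a low level, stood highest in LD and lowest in LDX on average. Its pools held 0.788, 0.874 and 0.715 CPM in R-11268, 4.81, 3.85 and 3.1 CPM in R-11272, 5.38, 7.06 and 5.08 CPM in LD and 0.584, 0.7 and 0.779 CPM in LDX. LD and R-11272 both lay above R-11268 and LDX without overlap, and did not overlap with each other. LD was 8.49 times LDX (log2 3.09 ± 0.242, edgeR adjusted p = 3.44e-05) and R-11268 was 4.92 times below R-11272 (-2.30 ± 0.234, 0.000537). R-11272 was 5.69 times LDX (2.51 ± 0.238, edgeR adjusted p = 0.000207), and its difference from LD was -0.58 ± 0.219 (0.209). Pools of R-11268 and LDX held between 17.8 and 29.8 estimated counts, and at such totals the deposited fitted values can vary less than counting would, so these errors may be too small.

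The flanks of the locus were described in the same way. The 20 nearest loci of the table on each side by number gave 40 transcripts, of which 37 were tested between lines. In LD against LDX edgeR called 0 of them higher and 1 lower, beside 3.85% of all transcripts in either direction. At an unadjusted p under 0.05, 2 were higher and 3 lower (14.3% of all transcripts), and DESeq2 called 0 higher and 1 lower (5.58%). Without the 3 pools apart edgeR called 2 higher and 2 lower, beside 8.1% of all transcripts. Their differences ran from -3.05 to 0.98 on the log2 scale, with a median size of 0.388 against 0.315 over all tested transcripts. The transcript called lower was Glyma18g02530.1, at -1.64 ± 0.203 (edgeR adjusted p = 0.000865). Its pools held 0.325, 0.309 and 0.297 CPM in LD and 0.851, 0.896 and 1.21 CPM in LDX, with 7.18 to 35.4 estimated counts a pool. In control libraries alone it was not called (-1.10, edgeR adjusted p = 0.0787). In R-11268 against R-11272 edgeR called 0 of the 37 with all pools (1.26% of all transcripts) and 0 without the 3 pools apart (1.88%). At an unadjusted p under 0.05, 1 was higher and 6 were lower (9.33% of all transcripts), and DESeq2 called 0 higher and 1 lower (1.75%). The median size was again 0.388, against 0.305 over all transcripts.

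**Figure D3:**
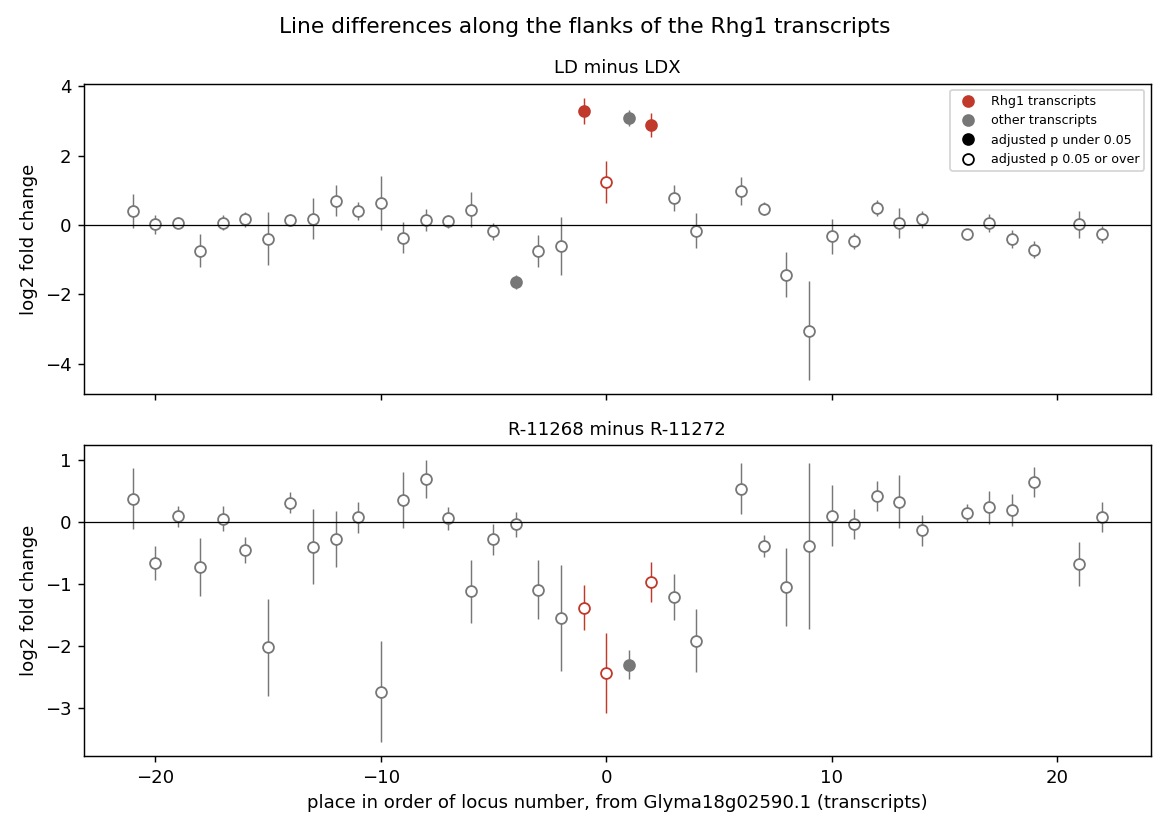
Log2 line differences with standard errors for transcripts in order of locus number around Glyma18g02590.1 (place 0), for LD minus LDX (top) and R-11268 minus R-11272 (bottom); red are the Rhg1 transcripts, grey the others, and filled points have an edgeR adjusted p under 0.05. In the top panel Glyma18g02580.1, Glyma18g02600.1 and Glyma18g02610.1 stand between 2.89 and 3.29, above all flanking transcripts, whose highest value is 0.98.

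Of the members, WI12 rose with MAMP and the others were not called by edgeR over the 24 libraries. WI12 libraries held 192, 201 and 191 CPM in R-11268 MAMP against 142, 147 and 141 CPM in R-11268 control. In R-11272 they held 645, 375 and 263 CPM with MAMP against 361, 208 and 147 CPM in control. In LD they held 1100, 1440 and 1090 CPM with MAMP against 462, 623 and 464 CPM in control, and in LDX 146, 145 and 184 CPM with MAMP against 70.4, 68.7 and 86.1 CPM in control. MAMP libraries lay above control libraries without overlap in R-11268, LD and LDX, as they did for 15.8%, 14.8% and 6.18% of all transcripts, and overlapped with them in R-11272. The MAMP library was the higher in each of the 12 pools, which the fitted values build in within a line. Standard errors, intervals and p-values of MAMP responses therefore rest on the spread of levels between pools. They hold no replicate error of the response, so a call or its absence does not separate members that respond from members that do not.

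Averaged over the lines WI12 rose by 0.90 ± 0.153 on the log2 scale, or 1.86-fold (edgeR adjusted p = 0.000322, positive in 4 of 4 lines). This made 1 of 3 members called higher, beside 7.75% of the 33214 transcripts tested. By line its response was 0.44 ± 0.305 in R-11268 (edgeR adjusted p = 1), 0.84 ± 0.306 in R-11272 (0.195), 1.23 ± 0.309 in LD (0.0222) and 1.08 ± 0.308 in LDX (0.0637). In LD alone it was thus called, beside 4.38% of all transcripts called higher there. That call was lost when any LD pool was left out, at an edgeR adjusted p of 0.142, 0.118 and 0.142 without replicates 1, 2 and 3. The LD response itself stayed between 1.22 and 1.24, held nearly fixed by the fitted values, so these losses do not measure its stability. The LDX response was called without R-11272 replicate 1 (edgeR adjusted p = 0.00267) and without R-11272 replicate 3 (0.0129). Without the 3 pools apart WI12 was called in R-11272 (0.87, edgeR adjusted p = 0.00511), LD (1.23, 0.000305) and LDX (1.07, 0.00125), and not in R-11268 (0.45, 0.0704). The shares of all transcripts called higher were then 6.78% for R-11268, 6.92% for R-11272, 6.84% for LD and 5.9% for LDX, and 11.1% for the mean, where WI12 stayed called (0.91, edgeR adjusted p = 2.65e-06). The responses of the 4 lines did not pass the test of a difference between them (edgeR F test, unadjusted p = 0.317, adjusted p = 1). At 0.148% of transcripts called, that test made few calls on any transcript.

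The amino acid transporter was not called with MAMP on average or in any line by edgeR. Its libraries held 38.6, 44.3 and 32.6 CPM in R-11268 MAMP against 50.1, 57.2 and 42.3 CPM in R-11268 control, with overlap. They ranged from 87.2 to 145 CPM in R-11272 MAMP and from 97 to 162 CPM in R-11272 control, from 306 to 595 CPM in LD MAMP and from 282 to 557 CPM in LD control, and from 28.7 to 60.9 CPM in LDX MAMP and from 26.2 to 54.7 CPM in LDX control. The treatments overlapped in all 4 lines. The mean log2 response was -0.07 with a 95% interval of -0.44 to 0.30 (edgeR adjusted p = 0.952), and line values ran from -0.37 in R-11268 to 0.14 in LDX.

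Alpha-SNAP gave responses of both signs. Its libraries held 940, 304 and 229 CPM in R-11272 MAMP against 1400, 449 and 340 CPM in R-11272 control. In LD they held 290, 581 and 332 CPM with MAMP against 384, 789 and 443 CPM in control, and in LDX 134, 126 and 428 CPM with MAMP against 97, 90.8 and 302 CPM in control. The R-11268 libraries lay from 98.2 to 123 CPM with MAMP and from 99.6 to 124 CPM in control. Treatments overlapped in each line. The log2 responses were -0.01 for R-11268, -0.57 for R-11272, -0.43 for LD and 0.49 for LDX, each with a standard error of 0.633 or 0.634, and none passed the test (edgeR adjusted p from 0.985 to 1). Their mean was -0.13 with a 95% interval of -0.79 to 0.53, and the test of a difference between lines gave an unadjusted p of 0.647 (edgeR). In single lines other than LD edgeR called 0 of 3 members, beside shares of all transcripts called higher of 3.16% for R-11268, 3.9% for R-11272 and 3.47% for LDX. At an unadjusted p under 0.05 this was 1 member for R-11272, 1 for LDX (WI12 both times) and 0 for R-11268, beside 7.64%, 6.84% and 6.28% of all transcripts higher under that rule. DESeq2 called 0, 1 and 0 members for these lines, beside 4.25%, 3.95% and 3.62% of all transcripts.

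**Figure D4:**
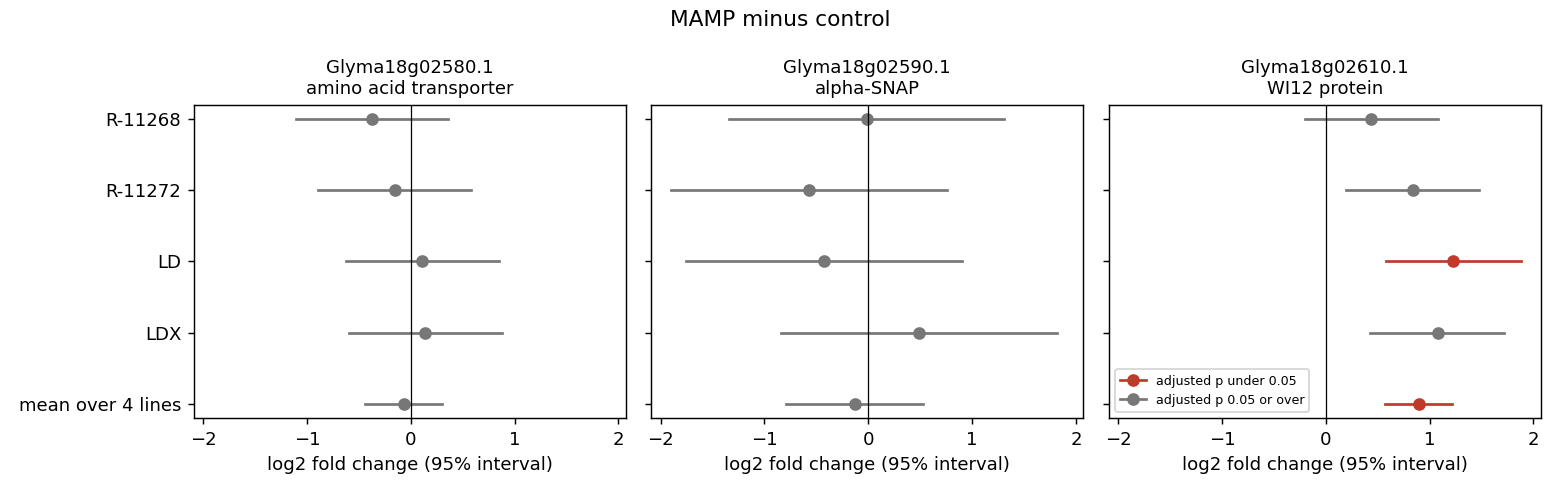
Log2 MAMP response (MAMP minus control, x axis, with 95% intervals) of the 3 Rhg1 transcripts in each line and on average; red marks an edgeR adjusted p under 0.05. Glyma18g02610.1 is positive in each line, with a mean of 0.90, whereas the intervals of Glyma18g02580.1 and Glyma18g02590.1 all include 0. The intervals rest on the spread of levels between pools and hold no replicate error of the response.

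Of 40 flanking transcripts 36 were tested for MAMP, and edgeR called 3 higher on average over the lines, a share close to the 7.75% of all transcripts, and 2 in R-11272 alone (3.9% of all transcripts). The 3 called on average were chosen for naming after their values were seen: Glyma18g02390.1 (0.87, edgeR adjusted p = 0.00248), Glyma18g02400.1 (1.61, 0.0143) and Glyma18g02850.1 (0.70, 0.000197). Glyma18g02600.1 had a mean response of 0.12 ± 0.107 (edgeR adjusted p = 0.765), with 0.54 ± 0.195 in LD (0.189; 0.0354 without the 3 pools apart).

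The members resembled each other only in part. Over the 24 libraries, which share 12 pools, Pearson's r of log2 CPM was 0.889 between the amino acid transporter and WI12, 0.77 between the amino acid transporter and alpha-SNAP, and 0.65 between alpha-SNAP and WI12. In the 18 libraries other than those of the 3 pools apart these were 0.878, 0.875 and 0.703. These r values are descriptions, over libraries that share lines, pools and the high values of the 3 pools. Among the 33211 other tested transcripts, those most like the amino acid transporter were Glyma18g05300.1 (r = 0.962), Glyma14g07670.1 (0.958) and Glyma18g42390.1 (0.945). Glyma18g42390.1, for example, averaged 0.0838 CPM in R-11268, 0.338 CPM in R-11272, 2.43 CPM in LD and 0.113 CPM in LDX. Those most like alpha-SNAP were Glyma04g39330.1 (r = 0.97), Glyma18g20760.1 (0.964) and Glyma01g42910.1 (0.963). Glyma04g39330.1 averaged 1.31 CPM in R-11268, 10.8 CPM in R-11272, 8.82 CPM in LD and 2.03 CPM in LDX. Those most like WI12 were Glyma14g01790.1 (r = 0.927), Glyma05g23970.1 (0.924) and Glyma20g33340.1 (0.918). An r over 0.9 was reached by 15 transcripts with the amino acid transporter, 31 with alpha-SNAP and 8 with WI12, and other members were not among the transcripts compared. In the 18 libraries other than those of the 3 pools apart these counts were 41, 30 and 18. Leaving out the 3 pools apart, the 9 named transcripts had r values from 0.921 to 0.985, and their places among all transcripts became 1, 2 and 8 for the amino acid transporter, 1, 14 and 5 for alpha-SNAP and 2, 8 and 12 for WI12. Several rest on very few counts, where log2 CPM depends on the prior count. Glyma18g42390.1 had 3.19 to 3.43 estimated counts a pool in R-11268, Glyma05g23970.1 had 1.48 to 1.81 in LDX, and Glyma18g05300.1 had at most 0.803 in LDX and about 0 in R-11268.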

How the data were processed

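RNA of leaf slices was sequenced from TruSeq libraries, per the labels' protocols. The authors deposited estimated counts per transcript, which need not be whole. The submitters' processing notes list TopHat 1.4.1, Bowtie 0.12.7 and Cufflinks 1.1.0 without their roles. The sources used here do not give the genome build, annotation, counting step or handling of reads that match several copies, so the members' values may hold reads of all copies of the repeat and of close paralogs. Columns marked C were read as control and those marked P, which no label explains, as MAMP; 0 other columns held per-sample values.

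Estimated counts were rounded and tested with edgeR 4.0.16 in R 4.3.3 (quasi-likelihood, TMM, filterByExpr with minimum count 10 and total 15). Line differences came from sums over 12 pools with 4 line means (34807 transcripts, 8 residual degrees of freedom), and MAMP responses from 24 libraries with 8 group means and no block (33214 transcripts, 16 degrees of freedom). All 3 members passed both filters. A call is an adjusted p under 0.05 (Benjamini-Hochberg, over all tested transcripts). SE is the log2 difference divided by the root of F. Same-numbered libraries of a line deviated together (r of 0.987 or more, other numbers 0.809 or less), which tied them into pools; because the values are fitted, this cannot be separated from the authors' model. P-values therefore rest on the pool spread left in fitted values and contain no replicate error of a MAMP effect. On simulated data, 98% of 200 transcripts changed 4-fold were recovered for LD minus LDX (34757 genes) and 100% for the mean MAMP response (32953 genes). Of the calls, 5.31% and 6.54% were false. The simulated counts were independent, with the same spread for all transcripts and without fitted values or pools apart. They check the code and do not give the power in these data.

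Alternatives used RLE factors, other filters, DESeq2 1.42.0, limma 3.58.1, single treatments, a replicate block and omitted pools; scaling by totals, and leaving the 3 pools apart out of values by treatment and of r, were chosen after seeing the data. The members and lists were chosen with earlier results of these data known. The text names the members, the locus numbered between them, flanking transcripts called between the parents or between the inbred lines (at most 8), and the 3 transcripts most like each member over 24 libraries (log2 CPM, prior count 2).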

Additional observations from a re-analysis of the deposited data

How the results depend on the processing

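Over 36 results (12 comparisons of 3 members), 753 values under alternatives were computed: 682 kept their direction and their side of the threshold, 9 fell short of it, 58 newly passed it and 4 changed sign. These counts do not measure stability alone. They include MAMP responses without single pools, whose size the fitted values hold nearly fixed. They also include MAMP values of the replicate block, which is void as described below. Glyma18g02580.1 and Glyma18g02610.1 stayed called in LD minus LDX, in R-11268 minus LD, and Glyma18g02610.1 in the mean MAMP response, under each alternative run. Where a call changed, the cause was not tested.

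For Glyma18g02580.1, R-11272 minus LD was no longer called with a mean count of 100 or more (-1.75), with only the lines compared (-1.80) and with the replicate block (-1.79), and ranged from -2.04 to -1.45 when single pools were left out. Its R-11272 minus LDX newly passed with DESeq2 (1.49), MAMP libraries (1.36), control libraries (1.65), total scaling (1.45) and without the 3 pools apart (1.57), and ranged from 1.26 to 1.82 without single pools. Its R-11268 minus R-11272 newly passed with DESeq2 (-1.37), MAMP libraries (-1.52) and without the 3 pools (-1.15). Its R-11268 minus LDX changed sign with MAMP libraries (-0.16) and without LDX replicate 2 (-0.07), ranging from -0.07 to 0.44 without single pools.

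For Glyma18g02590.1, R-11268 minus LD newly passed with DESeq2 (-2.05), with only the lines compared (-2.06) and without the 3 pools (-1.71). Its R-11268 minus R-11272 passed with DESeq2 (-2.42), control libraries (-2.71) and without the 3 pools (-1.55), which also brought LD minus LDX (1.69) and R-11272 minus LDX (1.53) past the threshold. Its R-11272 minus LD changed sign without the 3 pools (-0.16) and without R-11272 replicate 1 (-0.51), ranging from -0.51 to 0.73 without single pools.

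For Glyma18g02610.1, R-11272 minus LD newly passed with RLE (-1.38), no low filter (-1.39), DESeq2 (-1.38), MAMP libraries (-1.50), control libraries (-1.11), total scaling (-1.51) and without the 3 pools (-1.55), and ranged from -1.76 to -1.15 without single pools. Its R-11272 minus LDX newly passed under the same 7 settings (1.5, 1.51, 1.5, 1.43, 1.67, 1.41 and 1.25), ranging from 1.14 to 1.75. Its MAMP response newly passed in LDX with DESeq2 (1.06), no low filter (1.09), total scaling (0.97) and without the 3 pools (1.07), in R-11272 with total scaling (0.88) and without the 3 pools (0.87), and in R-11268 with only that line (0.45). Without single pools it ranged from 1.22 to 1.24 in LD and from 1.06 to 1.08 in LDX. These ranges had to be narrow, because the MAMP effect is the same in every pool of a line by construction. They do not measure how stable the response is.

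The replicate block on the 24 libraries is void, because the MAMP effect is the same in every pool of a line by construction and leaves almost no residual. It gave responses of -0.37, -0.15, 0.11 and 0.13 for Glyma18g02580.1 in R-11268, R-11272, LD and LDX (mean -0.07), of -0.57, -0.42 and 0.48 for Glyma18g02590.1 in R-11272, LD and LDX (mean -0.13), and of 0.44, 0.84 and 1.07 for Glyma18g02610.1 in R-11268, R-11272 and LDX. Its adjusted p for a difference between lines was 8.93e-35, at most 1e-300 and 3.06e-245 for the 3 members (edgeR). Between lines, the deviations of same-numbered replicates from their group means had r over all tested transcripts from -0.887 to 0.669. The labels do not record whether such replicates share a source. With only 3 replicates a line, these r values cannot decide it. In the line comparisons the block changed no call of a member but the one above.

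Read by treatment, 4 differences changed sign without the 3 pools apart, a setting added after seeing the data: R-11268 minus LDX of Glyma18g02580.1 among MAMP libraries (0.17) and of Glyma18g02590.1 among control libraries (0.23), and R-11272 minus LD of Glyma18g02590.1 among MAMP (-0.19) and control libraries (-0.07).

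Counts of calls over all transcripts moved more, in each case over alternatives other than the block. LD minus LDX had 1340 calls (272 to 2827), R-11268 minus R-11272 439 (57 to 659), R-11268 minus LD 492 (50 to 1372), R-11268 minus LDX 650 (97 to 1276), R-11272 minus LD 1095 (127 to 3133) and R-11272 minus LDX 561 (84 to 942). The MAMP response had 3238 on average (1891 to 5629, and 18199 with the block), 1125 in R-11268 (731 to 2715), 1429 in R-11272 (685 to 3192), 1551 in LD (998 to 2493) and 1254 in LDX (155 to 2189), and 49 transcripts differed between lines (8 to 159). Total scaling, chosen after seeing the data, put the share of higher calls at 60.2% against 79.5% in the mean MAMP response, 83.1% against 93.7% in LD and 75.3% against 91.8% in LDX. It moved the median log2 difference of all transcripts to 0.131 in R-11268 minus R-11272, against -0.0206 with TMM. Glyma18g02600.1, Glyma18g02530.1 and several of the transcripts most like the members rest on few counts.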
